A study of Mus musculus with 8 samples.

Results

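The 10 genes described here belong to the cell's defence against oxidants and electrophiles: Gclc, Gclm and Gss build glutathione, Gsr regenerates it, Nqo1, Hmox1, Txnrd1 and Srxn1 are enzymes known as targets of the transcription factor NRF2, and Nfe2l2 and Keap1 encode NRF2 and the adaptor that marks it for destruction. They were taken by name from a table of 35976 genes, and all 10 passed the filter on low counts that left 14036 genes for testing. Liver RNA was sequenced from 5 control libraries (CTRL) and 3 libraries of mice labelled OPA1 LKO (OPA1_LKO here), in which Opa1 was deleted in hepatocytes. Opa1 encodes the GTPase that fuses the inner mitochondrial membrane. Both groups were on a high fat diet, so every value below belongs to liver under that diet. The labels give no age, sex or Cre driver and do not say whether each library is a separate animal, so the p-values measure the spread between these libraries, which may be technical.

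Glutathione is a tripeptide made in the cytosol in 2 steps. The first joins glutamate to cysteine and sets the pace, and it is run by a catalytic subunit (Gclc) and a modifier subunit (Gclm). Glutathione synthetase (Gss) then adds glycine, and liver is a main source of the glutathione that circulates in blood. NRF2 is held low by KEAP1, which hands it to a ubiquitin ligase. Electrophiles and peroxides modify KEAP1, and NRF2 then accumulates, pairs with small MAF proteins and binds antioxidant response elements near the genes of these enzymes.

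Some of the gene starts carry the letters of that element. Promoter windows of RefSeq (GRCm38.p6) ran from 250 bases before to 50 bases after a start of the gene. They were matched by symbol for 7 of the 10 genes, in 9 windows because Txnrd1 has 3 starts. Gclc, Gsr and Hmox1 were not matched. The windows were searched on both strands for TGACNNNGC, the core of the antioxidant response element, and for TGAGNNNGC, a variant with G in place of C, and no 2 matches shown here overlap. At least 1 of these motifs was found in 4 of the 9 windows (Nfe2l2, Gclm, Srxn1 and 1 start of Txnrd1), and in 27.8% of all 32851 windows of the table. TGACNNNGC alone was in 4 of the 9 windows and 12.4% of all, and TGAGNNNGC in 1 of the 9 and 17.6% of all. The windows with a match of Nfe2l2, Gclm and Txnrd1 are shown because these genes were lower in every OPA1_LKO library in CPM, and that of Srxn1 because it holds the most matches while its groups overlapped. Capitals mark the matches, and every window reads along the gene's strand, 5′ to 3′.
Nfe2l2, chr2:75704614-75704913, minus strand: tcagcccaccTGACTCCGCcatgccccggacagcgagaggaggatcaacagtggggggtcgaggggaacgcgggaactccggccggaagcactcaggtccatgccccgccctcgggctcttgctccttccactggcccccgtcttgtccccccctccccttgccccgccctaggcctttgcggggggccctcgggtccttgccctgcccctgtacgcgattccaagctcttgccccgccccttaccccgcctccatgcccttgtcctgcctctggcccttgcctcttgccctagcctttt
Gclm, chr3:122245307-122245606, plus strand: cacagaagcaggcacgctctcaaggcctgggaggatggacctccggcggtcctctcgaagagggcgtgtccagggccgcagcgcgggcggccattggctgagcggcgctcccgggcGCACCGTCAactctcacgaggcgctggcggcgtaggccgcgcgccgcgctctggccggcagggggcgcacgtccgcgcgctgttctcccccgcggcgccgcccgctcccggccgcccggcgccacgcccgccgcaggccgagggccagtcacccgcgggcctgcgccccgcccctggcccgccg
Srxn1, chr2:152105274-152105573, plus strand: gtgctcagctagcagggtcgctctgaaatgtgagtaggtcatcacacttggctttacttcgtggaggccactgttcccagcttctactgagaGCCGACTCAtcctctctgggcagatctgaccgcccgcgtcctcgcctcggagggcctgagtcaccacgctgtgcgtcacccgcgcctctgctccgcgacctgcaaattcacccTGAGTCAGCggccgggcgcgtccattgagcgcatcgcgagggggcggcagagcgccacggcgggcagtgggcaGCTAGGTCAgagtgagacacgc
Txnrd1, chr10:82858956-82859255, plus strand: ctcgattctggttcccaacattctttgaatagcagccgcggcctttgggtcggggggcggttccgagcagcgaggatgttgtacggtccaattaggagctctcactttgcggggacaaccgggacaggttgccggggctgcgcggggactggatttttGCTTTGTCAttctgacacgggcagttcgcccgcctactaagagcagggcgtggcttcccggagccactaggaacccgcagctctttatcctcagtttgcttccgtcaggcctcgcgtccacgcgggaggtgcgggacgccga
In Nfe2l2 the match TGACTCCGC begins 240 bases before the start. In Gclm the match lies on the opposite strand, from 134 bases before the start used by its window. That start lies downstream of the first position given for the gene, 122245487. In Txnrd1 the match is also on the opposite strand, from 92 bases before the start of the window shown. Srxn1 holds TGAGTCAGC from 45 bases before its start and 2 further matches on the opposite strand. These are matches of letters, and no binding was measured.

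Among the 10 genes, Gclc and Nfe2l2 fell in OPA1_LKO and none rose. Gclc, the catalytic subunit that limits glutathione synthesis, was 2.23-fold lower, and Nfe2l2, the gene of NRF2 itself, was 1.56-fold lower. The other 8 genes did not pass the test. Of these, Gclm, Txnrd1 and Keap1 were also lower in each OPA1_LKO library than in each CTRL library in CPM. Gss, Gsr, Nqo1, Hmox1 and Srxn1 overlapped between groups. CPM are counts scaled to library size times a TMM normalisation factor, so such gaps depend on that factor. It was 1.11, 1.09 and 1.02 in OPA1_LKO replicates 1 to 3. In CTRL replicates 1 to 5 it was 1.17, 1.001, 0.884, 0.832 and 0.937. A gene is called changed where the adjusted p of edgeR's quasi-likelihood test, corrected by the Benjamini-Hochberg method over 14036 genes, is under 0.05. By that rule 2 of 10 genes were lower, against 2.69% of all genes tested, and 0 were higher, against 3.34%. At an unadjusted p under 0.05, 5 were lower, against 12.3% of all genes, and 0 were higher, against 11.5%. DESeq2 called 4 of the 10 lower (Gclc, Nfe2l2, Gclm and Txnrd1), against 6.1% of all genes, and 0 higher, against 6.03%. Without CTRL replicate 1 edgeR again called 2 lower, against 5.59%, and 0 higher, against 6.65%. Groups that did not overlap in CPM, with OPA1_LKO below, were seen in 5 of 10 genes and in 8.41% of all genes. With OPA1_LKO above they were seen in 0 of 10 and in 8% of all genes. In TPM only Gclc and Nfe2l2 lay apart, and the share over all genes was not computed on that scale. The count of lower members in the remaining settings reads against backgrounds of its own. It was 2 with upper-quartile factors (1.92% of all genes lower), without the low-count filter (1.03%) and with a replicate block (1.24%), 1 on the log2(TPM + 0.1) scale (0.805%) and 0 on the log2(TPM + 1) scale (0.762%). It was 2 without CTRL replicate 2 (1.39%), 3 (1.9%), 4 (1.38%) or 5 (1.23%) or OPA1_LKO replicate 2 (1.66%), and 1 without OPA1_LKO replicate 1 (0.377%) or 3 (0.498%). The fold change was negative in 8 of 10 genes and in 53.1% of all genes, and the median log2 fold change was -0.33 over the 10 genes and -0.03 over all genes. In bulk liver, fewer cells of a type and less RNA per cell cannot be told apart.

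**Figure D1:**
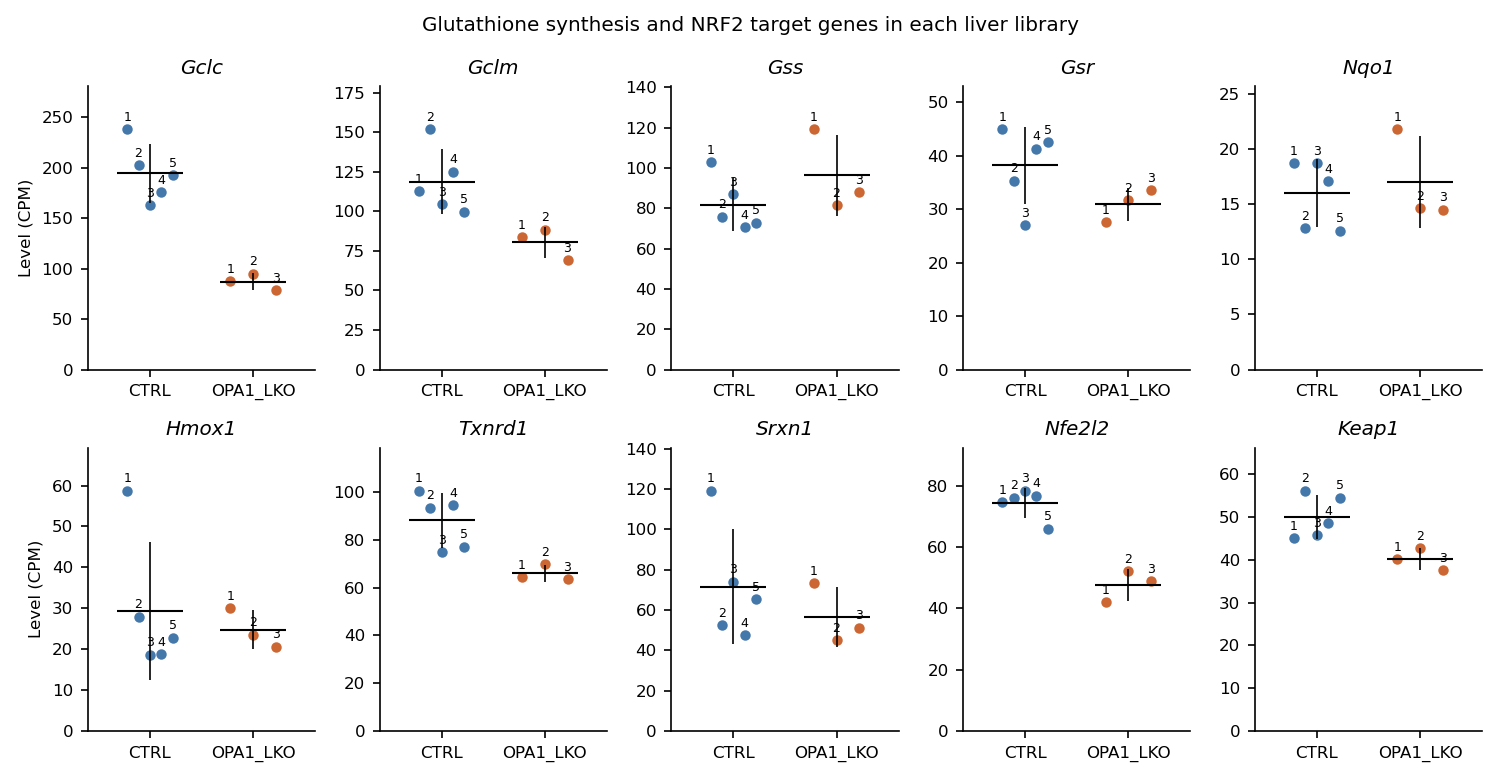
Level of each of the 10 genes in CPM (vertical axes, from 0) in every library, with the replicate number beside each point. The horizontal line is the group mean and the vertical line is 1 SD (5 CTRL, 3 OPA1_LKO). For Gclc and Nfe2l2 the 3 OPA1_LKO libraries lie well below the 5 CTRL libraries, and CTRL replicate 1 stands high for Hmox1 (58.7 CPM) and Srxn1 (119 CPM).

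The libraries held about 16076400 to 20471300 estimated reads on genes. CTRL replicate 1 stood apart from the other libraries, with Apoe, a liver apolipoprotein, at 134 CPM against at least 20759 CPM elsewhere. Summed over 8 macrophage markers it held 942 CPM, against 185 to 381 CPM in the other CTRL and 164 to 278 CPM in the OPA1_LKO libraries, and none of the 8 markers passed the test between groups. Of the 6 bile duct markers, 3 (Krt7, Sox9 and Spp1) rose, against 3.34% of all genes tested, while Krt19, Epcam and Cldn7 overlapped between groups. The 6 markers summed to 17.5 to 69.6 CPM in CTRL and 140 to 204 CPM in OPA1_LKO. On average Spp1 made up most of that sum, at a mean of 22.7 CPM in CTRL and 154 CPM in OPA1_LKO. The means in CTRL and OPA1_LKO were 5.004 and 3.52 CPM for Krt19 and 3.91 and 7.63 CPM for Epcam. Cldn7 was at 0 in at least 1 CTRL library. The 5 hepatocyte markers (Alb, Apoa1, Ttr, Cps1 and Serpina1a) were far above the others, at 57528 to 100296 CPM in CTRL and 69331 to 89161 CPM in OPA1_LKO, and none of them passed the test. The 6 stellate cell markers summed to 171 to 244 CPM in CTRL and to 229, 482 and 268 CPM in OPA1_LKO replicates 1 to 3. All 6 had positive fold changes and none passed, the nearest being Pdgfrb (log2 fold change 0.89 ± 0.30, adjusted p = 0.114, edgeR). No marker of the endothelial (5), lymphocyte (4) or neutrophil (2 tested of 3) lists passed either. Opa1 itself, the targeted gene, measured 39.9, 51.9, 44.0, 57.6 and 46.9 CPM in the CTRL libraries against 24.7, 34.4 and 34.0 CPM in the OPA1_LKO libraries. It was lower in each OPA1_LKO library in CPM, though the groups overlapped in TPM, with a log2 fold change of -0.63 ± 0.17 (SE) just short of the threshold (adjusted p = 0.0539, edgeR). The part of CTRL replicate 1, and of the values of duct and stellate markers, in the results on the 10 genes was not tested beyond the values without that library given below.

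Gclc (chromosome 9, 77754535 to 77794489, GRCm38.p6) was at 238, 202, 163, 176 and 192 CPM in CTRL replicates 1 to 5. In OPA1_LKO replicates 1 to 3 it was at 87.5, 95.1 and 78.5 CPM. The lowest CTRL library was thus far above the highest OPA1_LKO library. The group means were 194 ± 28.9 CPM (SD, n = 5) and 87.0 ± 8.31 CPM (SD, n = 3). The fitted log2 change came to -1.16 ± 0.16 (SE; 95% interval -1.52 to -0.80), at an adjusted p of 0.00423 by edgeR. Gclc passed in all 8 fits that left out a library, with adjusted p between 0.00267 and 0.0373 by edgeR, and without CTRL replicate 1 it was 2.10-fold lower. On the log2(TPM + 1) scale its adjusted p was 0.0504 by limma, just outside the threshold.

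Gclm (chromosome 3, 122245487 to 122267215), whose protein lowers the feedback of glutathione on the catalytic subunit, was at 113, 152, 105, 125 and 99.8 CPM in CTRL. It was at 83.5, 88.4 and 69.3 CPM in OPA1_LKO. The groups did not overlap in CPM, though the gap between CTRL replicate 5 and OPA1_LKO replicate 2 was small, and in TPM (scaled to transcript length and library) they overlapped. The log2 fold change was -0.56 ± 0.17 (SE; 95% interval -0.94 to -0.19) and the adjusted p 0.0808 by edgeR, short of the threshold. DESeq2 gave an adjusted p of 0.0230 for Gclm, the only one of 14 other settings in which it passed.

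Set side by side per length, the catalytic subunit stood lower relative to the modifier in OPA1_LKO. The ratio of Gclc to Gclm in TPM was 1.37, 0.863, 1.01, 0.915 and 1.25 in the CTRL libraries. In the OPA1_LKO libraries it was 0.681, 0.695 and 0.732. All 3 OPA1_LKO ratios were below the lowest CTRL ratio. This ratio was chosen after its values were seen and is given as a description, with no test.

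Gss (chromosome 2, 155563181 to 155592810), the second enzyme of the synthesis, went the other way from Gclc without passing the test. It measured 103, 75.9, 86.9, 70.7 and 73.0 CPM across the CTRL libraries, against 119, 81.7 and 88.1 CPM across those of OPA1_LKO, so that the groups overlapped and replicate 1 was the highest of each. The fitted log2 change came to 0.23 ± 0.18 (SE; 95% interval -0.16 to 0.63), at an adjusted p of 0.457 by edgeR. Gsr (chromosome 8, 33653238 to 33698162), the reductase that turns oxidised glutathione back to its reduced form, was at 44.9, 35.3, 27.0, 41.3 and 42.5 CPM in CTRL. It was at 27.5, 31.7 and 33.6 CPM in OPA1_LKO. CTRL replicate 3 was below all 3 OPA1_LKO libraries. Gsr had a log2 fold change of -0.31 ± 0.17 (SE; 95% interval -0.69 to 0.08), with an adjusted p of 0.319 by edgeR.

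**Figure D2:**
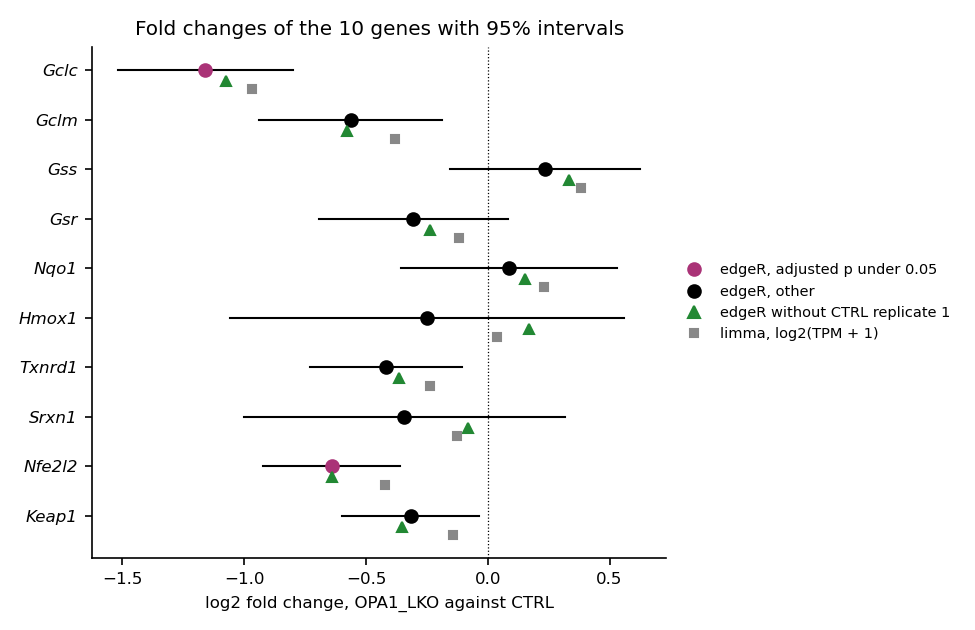
log2 fold change of each gene, OPA1_LKO against CTRL (horizontal axis); the line is the 95% interval of the edgeR fit on all 8 libraries. Gclc (-1.16) and Nfe2l2 (-0.64) passed the test; triangles leave out CTRL replicate 1, which moves Hmox1 from -0.25 to 0.17, and squares are on the log2(TPM + 1) scale, which lies to the right for all 10 genes.

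Nfe2l2 (chromosome 2, 75675513 to 75704663) had the smallest spread of the 10 genes among the CTRL libraries, with a coefficient of variation of 6.53%. Its level was 74.5, 76.1, 78.3, 76.7 and 66.0 CPM in CTRL and 41.9, 52.0 and 49.0 CPM in OPA1_LKO. The lowest CTRL library, replicate 5, was above all 3 OPA1_LKO libraries, and the groups were also apart in TPM. The means were 74.3 ± 4.85 CPM (SD, n = 5) and 47.6 ± 5.18 CPM (SD, n = 3). The fitted log2 change came to -0.64 ± 0.13 (SE; 95% interval -0.92 to -0.36), at an adjusted p of 0.0192 by edgeR and 0.0188 without CTRL replicate 1. It passed in 6 of 8 leave-one-library-out fits and missed the threshold without OPA1_LKO replicate 1 (adjusted p = 0.114, edgeR) and without OPA1_LKO replicate 3 (adjusted p = 0.0888, edgeR). On the log2(TPM + 1) scale the difference was -0.42, with an adjusted p of 0.205 by limma. That scale moved the median gene up by 0.16, and relative to this shift Nfe2l2 was at -0.58 and Gclc at -1.13.

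Keap1 (chromosome 9, 21229730 to 21239332), the repressor, was at 45.03, 56.1, 45.8, 48.6 and 54.5 CPM in CTRL. In OPA1_LKO it was at 40.2, 42.7 and 37.5 CPM. The groups did not overlap in CPM but lay close together, and they overlapped in TPM. Its fitted log2 change came to -0.32 ± 0.13 (SE; 95% interval -0.60 to -0.04), at an adjusted p of 0.165 by edgeR. The ratio of Nfe2l2 to Keap1 in TPM was 2.33, 1.90, 2.37, 2.24 and 1.68 for CTRL and 1.53, 1.70 and 1.93 for OPA1_LKO, and the groups overlapped. Like the former ratio, it was chosen after its values were seen and was not tested. NRF2 is known to be set largely by the stability of its protein, which was not measured here.

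Of the 4 target enzymes, none passed the edgeR test. Txnrd1 (chromosome 10, 82833951 to 82897724), the cytosolic thioredoxin reductase, measured 100.5, 93.4, 74.9, 94.4 and 77.1 CPM across the CTRL libraries, against 64.3, 69.8 and 63.6 CPM across those of OPA1_LKO. Each OPA1_LKO library was below each CTRL library in CPM, and in TPM the groups overlapped. Its fitted log2 change came to -0.42 ± 0.14 (SE; 95% interval -0.73 to -0.10), at an adjusted p of 0.110 by edgeR and 0.0471 by DESeq2.

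Nqo1 (chromosome 8, 107388225 to 107403205), a quinone reductase and the usual marker gene of NRF2 activity, had the lowest mean TPM of the 10 in both groups. In OPA1_LKO it was nearly level with Gsr (means of 13.97 and 13.99 TPM). It measured 18.7, 12.8, 18.7, 17.1 and 12.6 CPM across the CTRL libraries, against 21.8, 14.7 and 14.5 CPM across those of OPA1_LKO. The groups overlapped, with OPA1_LKO replicate 1 the highest of the 8 libraries. The fitted log2 change came to 0.09 ± 0.20 (SE; 95% interval -0.36 to 0.53), at an adjusted p of 0.824 by edgeR. It was -0.13 without OPA1_LKO replicate 1, so even its direction rested on that library.

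Hmox1 (chromosome 8, 75093618 to 75100593), the heme oxygenase, which macrophages also express, and Srxn1 (chromosome 2, 152105524 to 152111376), which repairs overoxidised peroxiredoxins, varied most among the controls. Hmox1 measured 58.7, 28.0, 18.7, 18.8 and 22.8 CPM across the CTRL libraries, against 30.1, 23.6 and 20.7 CPM across those of OPA1_LKO. CTRL replicate 1 was the highest, the same library in which the macrophage markers were highest, and the part of those markers in this level was not tested. Srxn1 measured 119, 52.5, 74.0, 47.4 and 65.3 CPM across the CTRL libraries, against 73.2, 44.98 and 51.3 CPM across those of OPA1_LKO, again with CTRL replicate 1 on top. Their log2 fold changes were -0.25 ± 0.36 and -0.34 ± 0.30 (SE), with adjusted p of 0.716 and 0.523 by edgeR. Without CTRL replicate 1 these became 0.17 and -0.08, with adjusted p of 0.579 and 0.830 by edgeR, so that Hmox1 changed direction. The coefficient of variation in CTRL was 57.3% for Hmox1 and 39.8% for Srxn1, and between 6.53% and 19.2% for the other 8 genes.

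**Figure D3:**
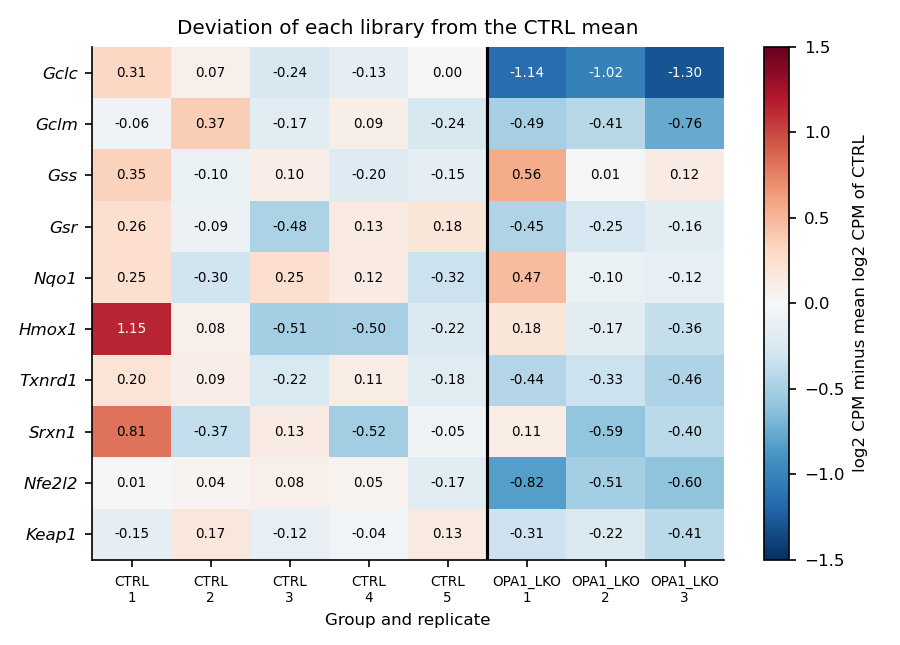
Each cell is the log2 CPM of a gene (rows) in a library (columns) minus the mean log2 CPM of the 5 CTRL libraries; red is higher and blue lower. Gclc and Nfe2l2 are blue in all 3 OPA1_LKO columns, Gss and Nqo1 are red in OPA1_LKO replicate 1 (0.56 and 0.47), and CTRL replicate 1 has the 2 deepest red cells, Hmox1 and Srxn1 (1.15 and 0.81).

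The 10 genes did not move as 1 block across libraries. CTRL replicate 1 was the highest of the 8 libraries for 5 genes, and it lay above the other 4 CTRL libraries for these and for Gss and Nqo1. OPA1_LKO replicate 3 was the lowest library for 4 genes and OPA1_LKO replicate 1 the highest for 2, Gss and Nqo1. The 2 changed genes kept their direction and call without CTRL replicate 1.

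In level per length, the order of the genes differed between groups at its top. In CTRL the highest were Gclc at 68.7 ± 21.2 TPM, Gclm at 63.8 ± 16.5 TPM and Gss at 49.3 ± 15.2 TPM (SD, n = 5). In OPA1_LKO the order was Gss at 63.6 ± 15.4 TPM, Gclm at 48.2 ± 9.78 TPM and Gclc at 33.7 ± 5.90 TPM (SD, n = 3). Gclc thus went from the first to the third place of the 10. Nfe2l2 came next in both groups, at 35.3 ± 5.75 and 26.0 ± 2.72 TPM. Txnrd1, Srxn1 and Hmox1 followed between 22.6 and 28.8 TPM in CTRL and between 20.1 and 24.4 TPM in OPA1_LKO. Keap1, Gsr and Nqo1 closed the order, from 11.7 to 17.0 TPM in CTRL and from 14.0 to 15.2 TPM in OPA1_LKO. In both groups every pair of neighbours in the order differed by less than the sum of their SDs.

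The transcripts behind these levels were compared for the 4 genes with more than 1 in use. RefSeq transcripts with a mean of at least 0.1 TPM and a mean share of 5% to 95% of their gene were tested, 9 in all, by an exact two-sided permutation test of the share over the 56 divisions of the libraries into 5 and 3. The smallest p this design allows is 0.0357, which for a single share becomes 0.321 when adjusted over the 9. No single share could therefore pass after adjustment, and the shares are given as a description. The lowest p was 0.179 by the exact permutation test, or 0.536 when adjusted over the 9. Nfe2l2 was mostly the coding transcript NM_010902.4, at 33.8, 30.5, 25.1, 24.2 and 24.9 TPM in CTRL and 16.4, 23.2 and 16.3 TPM in OPA1_LKO, and these groups did not overlap. Its non-coding transcript NR_132727.1 was at 7.65 ± 1.59 TPM for CTRL (SD, n = 5) against 7.29 ± 1.25 TPM for OPA1_LKO (SD, n = 3). The coding share was 78.5% ± 1.49 in CTRL and 71.4% ± 7.33 in OPA1_LKO.

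Gclc was mostly XM_006510812.1, with a share of 91.4% ± 2.72 in CTRL (SD, n = 5) and 89.6% ± 2.50 in OPA1_LKO (SD, n = 3). Its level was 62.5 ± 18.7 TPM in CTRL and 30.3 ± 5.36 TPM in OPA1_LKO. Txnrd1 was mostly NM_015762.2, with 92.2% ± 4.42 and 90.7% ± 9.12. Gss was divided among 3 transcripts whose shares varied widely between libraries. The share of NM_008180.2 in Gss was 26.5% ± 18.6 in CTRL and 34.2% ± 15.1 in OPA1_LKO. Such shares are RSEM estimates, in which reads that fit several transcripts are divided by a model.

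**Figure D4:**
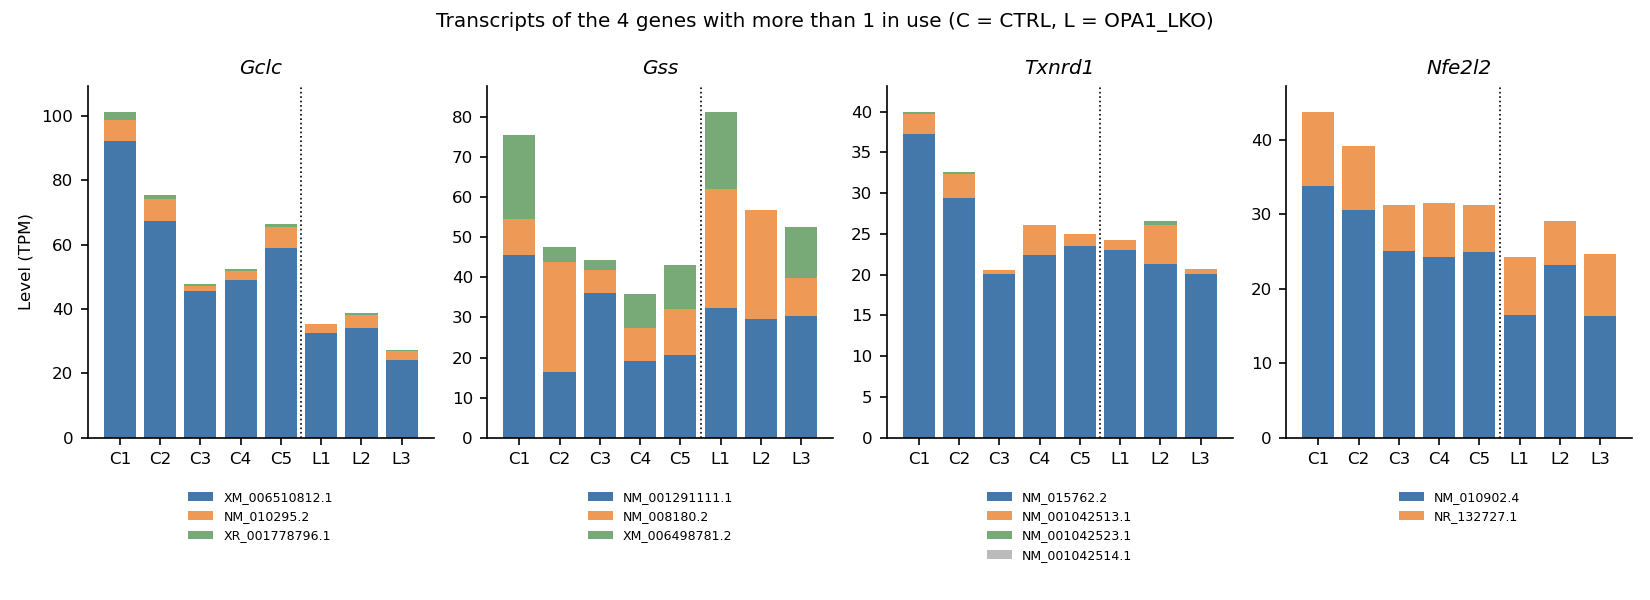
Level in TPM (vertical axes, from 0) of each RefSeq transcript, stacked, for Gclc, Gss, Txnrd1 and Nfe2l2 in every library (C1 to C5, CTRL; L1 to L3, OPA1_LKO). The dominant transcripts of Gclc and Nfe2l2 are lower in the 3 OPA1_LKO libraries, and the make-up of Gss varies between libraries of the same group.

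Around the 10 genes, 115 genes in 9 lists cover the supply, use and turnover of glutathione, the thioredoxin system, NADPH supply, other NRF2 targets and the control of NRF2. Of these, 110 were tested, and 6 rose and 3 fell, that is 9 of 110 against 6.03% of all genes tested. The fold change was negative for 78 of the 110, with a median log2 fold change of -0.22. Over all genes 53.1% were negative. Without CTRL replicate 1, 9 rose and 12 fell, against 6.65% and 5.59% of all genes in that fit. For the lists that follow, 11.5% of all genes were higher and 12.3% lower at an unadjusted edgeR p under 0.05, and DESeq2 called 6.03% higher and 6.1% lower.

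Cysteine supply lists the import of cysteine and its synthesis from methionine. It also holds Cdo1 and Bhmt, which use up cysteine and its precursor homocysteine. Of 8 tested genes 1 rose and 0 fell, with a median of 0.17, and at an unadjusted edgeR p under 0.05 and by DESeq2 the counts were also 1 and 0. The gene that rose was Slc3a2, the heavy chain that carries several amino acid exchangers to the membrane, among them the cystine importer. It measured 41.4, 24.6, 27.7, 23.7 and 28.5 CPM across the CTRL libraries, against 154, 67.6 and 76.5 CPM across those of OPA1_LKO, with OPA1_LKO replicate 1 far above the others and no overlap. Its fitted log2 change came to 1.77 ± 0.28 (SE), at an adjusted p of 0.00758 by edgeR. Slc3a2 passed in all 14 other settings, including the fit without that library. Slc7a11, the light chain of the cystine importer, had too few counts to be tested, with at most 0.478 CPM in any CTRL and 0.323 CPM in any OPA1_LKO library. Cdo1, which oxidises cysteine, and Bhmt, which remethylates homocysteine, had log2 fold changes of -0.51 ± 0.24 and -0.66 ± 0.33 and did not pass (adjusted p = 0.233 and 0.258, edgeR).

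In glutathione turnover, 1 of 13 tested genes rose and 0 fell. Ggt5, a gamma-glutamyl transferase of low level here, rose from 2.72 ± 0.625 CPM (SD, n = 5) to 6.82 ± 2.52 CPM (SD, n = 3), with an adjusted p of 0.0273 by edgeR. It passed in 3 of 8 leave-one-library-out fits. Ggt6 and Chac2, a glutathione-cleaving cyclotransferase, had log2 fold changes of -0.71 ± 0.23 and -0.65 ± 0.27 (adjusted p = 0.0996 and 0.183, edgeR). At an unadjusted edgeR p under 0.05, 2 were higher and 2 lower, and DESeq2 called 1 higher and 1 lower.

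In glutathione use, 2 of 13 tested genes rose and 0 fell, although 10 of the 13 had negative fold changes and the median was -0.26. Gpx3, the secreted glutathione peroxidase, measured 25.2, 5.73, 16.3, 5.01 and 8.76 CPM across the CTRL libraries, against 86.4, 76.8 and 66.0 CPM across those of OPA1_LKO. Every OPA1_LKO library was far above every CTRL library, and the log2 fold change was 2.64 ± 0.45 (SE; adjusted p = 0.0122, edgeR). Gpx3 passed in 13 of 14 other settings and missed the threshold without OPA1_LKO replicate 1. Gpx7, a peroxidase of the endoplasmic reticulum, rose from 2.31 ± 0.877 to 5.53 ± 0.977 CPM (adjusted p = 0.0416, edgeR) but passed in only 1 of 8 leave-one-library-out fits. Glo1, which uses glutathione to clear methylglyoxal, was lower in each OPA1_LKO than in each CTRL library in CPM but overlapped in TPM, with a log2 fold change of -0.93 ± 0.25 just short of the threshold (adjusted p = 0.0553, edgeR). At an unadjusted edgeR p under 0.05 4 genes of this list were lower, and DESeq2 called 1.

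**Figure D5:**
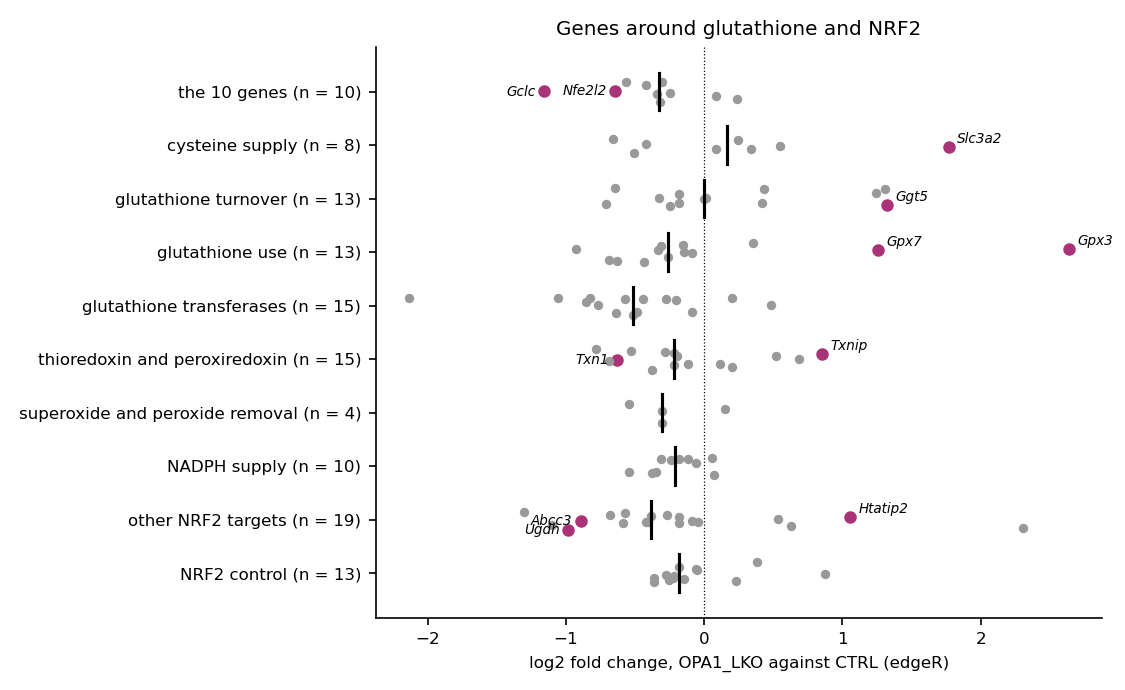
log2 fold change (OPA1_LKO against CTRL, edgeR) of every tested gene in the 10 described genes and the 9 lists around them; named points in purple passed the test and the bar is the median. The medians lie between -0.51 and 0.17, and Gpx3 (2.64) and Slc3a2 (1.77) are the 2 largest rises that passed.

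Of 15 tested glutathione transferases, which conjugate glutathione to foreign and reactive compounds, 0 rose and 0 fell by edgeR, with 13 negative fold changes and a median of -0.51. At an unadjusted edgeR p under 0.05, 7 of the 15 were lower and 1 was higher, against 12.3% and 11.5% of all genes. DESeq2 called 3 of the 15 lower, against 6.1%. The 3 with the smallest p were Mgst1, Gstm4 and Mgst3, with log2 fold changes of -0.83 ± 0.25, -0.57 ± 0.18 and -1.05 ± 0.34 (adjusted p = 0.0830, 0.0926 and 0.0991, edgeR). In CPM the OPA1_LKO libraries of all 3 were below the CTRL libraries, for Gstm4 by a hair (30.45 against 30.46 CPM), and in TPM this held for Mgst3, while Mgst1 and Gstm4 overlapped. Reads of the Gsta and Gstm genes may be divided among close relatives by estimation.

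In the thioredoxin and peroxiredoxin list, 1 of 15 tested genes fell and 1 rose. Txn1, the cytosolic thioredoxin that Txnrd1 reduces, measured 387, 309, 380, 347 and 300 CPM across the CTRL libraries, against 213, 233 and 221 CPM across those of OPA1_LKO. The groups were apart and the log2 fold change was -0.63 ± 0.15 (SE; adjusted p = 0.0337, edgeR), but Txn1 passed in only 2 of 8 leave-one-library-out fits. Txnip, which binds thioredoxin and inhibits it, rose from 79.8 ± 15.5 CPM (SD, n = 5) to 144 ± 20.1 CPM (SD, n = 3), with a log2 fold change of 0.85 ± 0.17 (SE; adjusted p = 0.0217, edgeR). Txnip passed in 3 of those 8 fits. Msra, a methionine sulfoxide reductase, was at -0.53 ± 0.15 on the log2 scale and did not pass (adjusted p = 0.0714, edgeR). In this list 3 genes were higher and 4 lower at an unadjusted edgeR p under 0.05, and DESeq2 called 2 higher and 3 lower.

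Among 19 other genes commonly listed as NRF2 targets, 2 fell and 1 rose, and 15 fold changes were below 0, the median being -0.39. Ugdh, which makes the UDP-glucuronate used for conjugation, measured 161, 128, 156, 155 and 118 CPM across the CTRL libraries, against 70.0, 72.9 and 74.8 CPM across those of OPA1_LKO. The groups were far apart, the log2 fold change was -0.99 ± 0.15 (SE; adjusted p = 0.00604, edgeR), and Ugdh passed in all 14 other settings. Abcc3, an export pump for conjugates, fell with a log2 fold change of -0.89 ± 0.21 (SE; adjusted p = 0.0368, edgeR) but passed in only 1 of 8 leave-one-library-out fits. Htatip2, an oxidoreductase-like protein, rose by 1.06 ± 0.20 on the log2 scale (SE; adjusted p = 0.0173, edgeR), with OPA1_LKO replicate 1 the highest at 104 CPM. Htatip2 passed in 13 of 14 other settings and missed the threshold without that library. At an unadjusted edgeR p under 0.05, 7 of these genes were lower and 4 higher, and DESeq2 called 6 lower and 3 higher.

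The remaining 3 lists gave no call by edgeR. Of the 13 genes listed under the control of NRF2, 0 passed. At an unadjusted edgeR p under 0.05, 1 was higher and 1 lower, with a single call by DESeq2. They were Cdkn1a, the cell cycle inhibitor p21, whose protein is known to shield NRF2, at 0.87 ± 0.23 (adjusted p = 0.0529, edgeR), and Mafk, a small MAF partner, at -0.36 ± 0.15 (adjusted p = 0.178, edgeR). Gsk3b, a kinase that marks NRF2 for degradation, was at -0.28 ± 0.15 (adjusted p = 0.289, edgeR). Of 10 genes listed under NADPH supply 0 passed, 2 were lower at an unadjusted edgeR p under 0.05 and DESeq2 called 1. Taldo1, of the pentose phosphate pathway, was at -0.54 ± 0.14 (adjusted p = 0.0526, edgeR). H6pd and Me1, which form NADPH in the endoplasmic reticulum and the cytosol, were at -0.38 ± 0.16 and -0.35 ± 0.17 (adjusted p = 0.196 and 0.242, edgeR). Of the 4 genes for superoxide dismutases and catalase 0 passed, 2 were lower at an unadjusted edgeR p under 0.05 and DESeq2 called 1, which was catalase (Cat), at -0.54 ± 0.20 (adjusted p = 0.143, edgeR). Sod2 and Sod1, the mitochondrial and the cytosolic dismutase, were at -0.31 ± 0.13 and -0.30 ± 0.16 (adjusted p = 0.196 and 0.295, edgeR).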

How the data were processed

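Per the submitters' processing notes, STAR, RSEM, StringTie and MultiQC were used with the mouse build mm10. Not given in the sources used here are versions and the annotation release. The labels' protocol names a stranded mRNA library kit. The authors deposited expected counts estimated by RSEM, not normalised, and TPM, which the authors' RSEM run corrected for length and scaled to a fixed total, both per gene and per transcript.

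Gene counts were rounded, filtered with filterByExpr (count minimum 10, total 15), scaled by TMM factors and tested with edgeR 4.0.16 (R 4.3.3) by group, with Benjamini-Hochberg adjustment over 14036 genes and a threshold of 0.05. SE and 95% intervals derive from the fold change and its statistic. CPM use TMM-scaled library sizes. Alternatives were DESeq2 1.42.0, upper-quartile factors, no filter, limma 3.58.1 on log2(TPM + 1) and log2(TPM + 0.1), a replicate block, and leaving out each library. Transcript shares used an exact permutation test (scipy 1.17.1). The edgeR procedure was also run on simulated counts with known changes, drawn without a library set apart like CTRL replicate 1. The outcome of that run is not given here.

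The members and lists were chosen with earlier results of these data known. All 10 genes are named, and of each list those that passed or, with fewer than 3, the 3 with the smallest p. Opa1 and Apoe are checks of the libraries. Slc7a11, Ggt1 and Mgst2 fall outside this rule and were named after their values were seen.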

Additional observations from a re-analysis of the deposited data

Results flagged for a closer look

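One value stood far from the others of its group by Dixon's test, which by chance marks about 1 group in 20 and was applied to the 5 CTRL libraries of each of the 10 genes. Hmox1 in CTRL replicate 1 was at 58.7 CPM, and the nearest CTRL library was at 28.0 CPM. The OPA1_LKO group, with 3 libraries, was not examined in this way. In the same library the 8 macrophage markers summed to 942 CPM and Apoe was at 134 CPM, and the part of either in the Hmox1 level was not tested.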

How the results depend on the processing

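Of the 10 genes, 2 were lower in the main analysis, 4 with DESeq2, 0 with log2(TPM + 1), 1 with log2(TPM + 0.1), and 1 to 2 when a library was left out. None was higher in any of the 14 settings. Of the 110 pathway genes, 6 were higher and 3 lower in the main analysis (3.34% and 2.69% of all genes). With DESeq2 the counts were 10 and 16 (6.03% and 6.1% of all genes). The lower count was 1 without the low-count filter (1.03%), 1 with log2(TPM + 1) (0.762%) and 1 with log2(TPM + 0.1) (0.805%). Leaving out a library gave 2 to 9 higher and 1 to 12 lower. Both counts were highest without CTRL replicate 1 (6.65% and 5.59% of all genes). The lowest higher count was without OPA1_LKO replicate 1, where 144 of the 14305 genes tested were higher. The lower count was 1 without CTRL replicate 2 (1.39% of all genes) or 3 (1.9%). It was also 1 without OPA1_LKO replicate 1 (0.377%) or 3 (0.498%). Fits that leave out a library have fewer samples, and the cause of the other shifts was not tested. Over all genes 846 were called in the main analysis, 1692 with DESeq2, 367 with the replicate block and 198 to 1701 without 1 library. The TPM scale called 504 genes higher and 107 lower, against 469 and 377, and upper-quartile factors 547 and 270.

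Directions reversed for 2 of the 10 genes, neither of them called. Hmox1 was at 0.039 with log2(TPM + 1) and 0.048 with log2(TPM + 0.1), and ranged from -0.41 to 0.17 when a library was left out, the highest without CTRL replicate 1. Nqo1 ranged from -0.13 to 0.21, the lowest without OPA1_LKO replicate 1. Share differences, in percentage points, ranged from -10.8 to 0.885 for NM_001291111.1, from -6.31 to 5.83 for XM_006498781.2, from -3.47 to 4.04 for NM_001042513.1 and from -4.54 to 3.73 for NM_015762.2.

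With the replicate number as a block, 2 of the 10 genes were again lower, and 4 pathway genes were higher and 4 lower. That fit called 193 higher and 174 lower of the 14036 genes tested. Replicates 4 and 5 exist only in CTRL, so the group difference in that fit rests on replicates 1 to 3 of each group. Same-numbered libraries deviated from their group means with correlations of 0.07, 0.05 and 0.18 across genes. OPA1_LKO replicates 1 and 3 correlated best with the CTRL library of the same number, and OPA1_LKO replicate 2 with CTRL replicate 5 (0.17). The labels name no pairs, and the numbers were not treated as pairs in the main analysis. The SE of the 10 fold changes ran from 0.13 to 0.36 on the log2 scale, which limits the differences 8 libraries can show.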

Other observations

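Ggt1, a gamma-glutamyl transferase of the pathway lists that was too low to be tested, had 519 estimated counts in CTRL replicate 3 and 0 to 8 in the other 7 libraries. Mgst2, a microsomal transferase also not tested, had 106 in the same library and 1 to 8 in the others. The pair was chosen after their values were seen.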
